A study of Mus musculus with 32 samples.

Results

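CH12F3 is an established mouse B lymphoma line whose cells exchange their IgM constant region for that of IgA when they are stimulated, a process called class switch recombination. The comparison described here asks how the RNA of such cells differed between day 1.5 and day 3 of stimulation. It rests on 8 of the 32 libraries of the series, 4 from each day, chosen by line, day and library numbers: the 4 day 1.5 libraries are replicates 3 and 4 of each genotype and the 4 day 3 libraries are replicates 1 and 2, all from the later of 2 blocks of library numbers. Every cell carried a knockout of Elof1, which encodes an elongation factor of RNA polymerase II. Into this knockout either an empty vector had been put (called vector, 2 libraries a day) or a construct that expresses ELOF1 (called ELOF1, 2 libraries a day). All cultures received an antibody to CD40 (α-CD40), IL4 and TGF-β, and an untreated culture is not part of the comparison. The labels name the line and the construct but not how many knockout clones were used, and they do not say whether replicates came from separate cultures, so the p-values below measure the spread between these samples, which may be technical. The library numbers of the 2 days form separate runs, so the day and anything shared by the libraries of 1 day cannot be told apart.

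The stimulus acts through receptors whose target genes are well described. CD40 recruits TRAF adaptors and activates NF-kB, IL4 acts through STAT6, and TGF-β acts through SMAD proteins and opens the IgA locus for switching. Early after such a stimulus B cells transcribe immediate-early genes and cytokines, together with the phosphatases and inhibitors that limit the same signals. Dividing lymphocytes also draw on glycolysis, on sterol synthesis for new membrane and on the amino acid response controlled by ATF4.

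The libraries held 10716722 to 15163087 mouse counts each, and a tested gene had a median count of 276 to 402. Elof1 itself was counted 11, 51, 4997 and 2619 times at day 1.5 and 17, 21, 3949 and 1981 times at day 3, in the order vector, vector, ELOF1, ELOF1, with the lower replicate number first in each genotype. All values by library below follow this order. Both vector libraries of each day were thus far below both ELOF1 libraries, as the labels state, and the level held by the construct differed between replicates at both days. Levels are given in CPM, TMM-scaled counts relative to library size, and summarised by the mean ± SD of a day's 4 libraries, so the SD holds the difference between genotypes as well. The 12 B cell markers, among them Cd79a, Pax5 and Cd74, were all tested and together summed to 7530 to 9160 CPM at day 1.5 and 7790 to 10300 at day 3. T and NK cell markers summed to 234 to 242 CPM at day 3 and to less in every day 1.5 library, from 178 up, mostly from Cd28 and Lck, while the T cell receptor constant genes Trbc1 and Trbc2 and the effector genes Ncr1 and Gzmb were at 0 in all 8 libraries. Myeloid markers summed to 76.5 to 136 and 82.1 to 172 CPM, mostly from Adgre1, Csf1r and Cd68, and 6 of the 17 (S100a8, S100a9, Elane, Cpa3, Mcpt4 and Ly6g) were at 0. Stromal markers summed to at most 19.2 CPM at day 1.5 and 14.5 at day 3, with Col3a1 and Dcn at 0.

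Of 13329 genes tested with edgeR's quasi-likelihood test, 1548 differed between the days at a Benjamini-Hochberg adjusted p below 0.05 (11.6% of those tested), and such genes are called changed here. Of these, 706 were higher at day 3 (5.30%) and 842 were lower (6.32%). All counts of list members below are to be read beside these shares, and no list was tested against them. The changes were mostly small: the median absolute log2 fold change of the called genes was 0.292, and 74 genes reached 2-fold, 44 of them higher and 30 lower. In 603 of the called genes all 4 libraries of one day lay above all 4 of the other, as they did in 907 of all 13329 genes tested; the call favours such genes, so the count is a description. The fit held genotype and a pair term, which set day 1.5 replicate 3 beside day 3 replicate 1 and replicate 4 beside replicate 2. This pairing comes from the rule that defines the comparison and not from the labels, and it decides the number of calls: without the pair term 33 genes were called (0.248%), 9 higher and 24 lower, all of them among the 1548. Leaving out 1 library lowered the count to between 835 (without vector replicate 4 of day 1.5) and 1471. The first principal component of the 8 libraries (40.9% of the variance) separated the pairs, the second (17.9%) the genotypes and the third (14.6%) the days. In bulk RNA, fewer cells of a type and less RNA per cell cannot be told apart, and this holds for every result below.

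**Figure D1:**
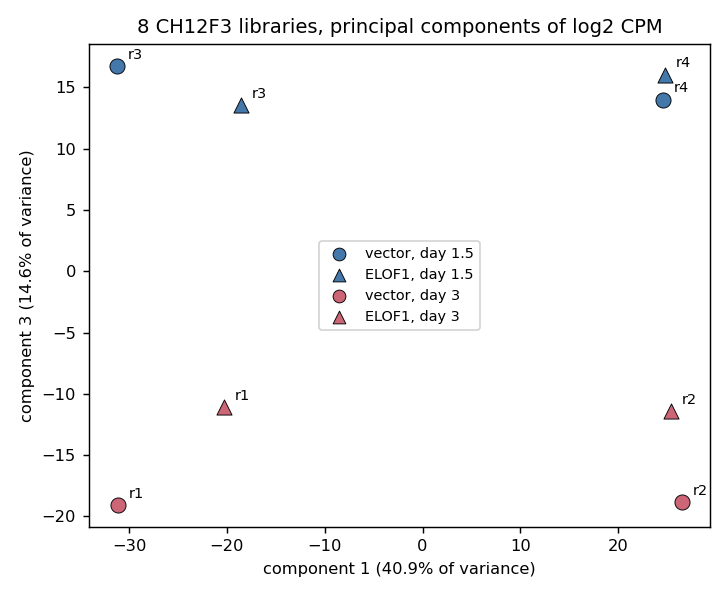
Each point is 1 library, placed by the first and the third principal component of log2 CPM over all tested genes; colour gives the day, shape the genotype and the label the replicate number. The first component (40.9% of the variance) separates replicates 3 and 1 from replicates 4 and 2, and the third (14.6%) separates day 1.5, above 0, from day 3, below 0.

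**Figure D2:**
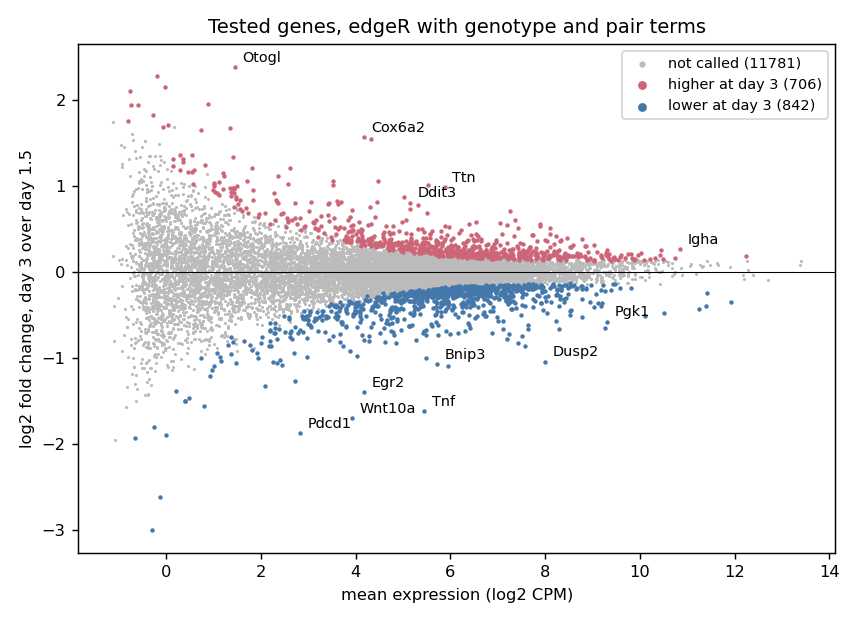
Each point is a tested gene, with mean expression in log2 CPM on the horizontal axis and the log2 fold change of day 3 over day 1.5 on the vertical axis; the 706 genes called higher and 842 called lower are coloured. Most called genes lie within a 2-fold change, and Tnf, Egr2, Pdcd1 and Wnt10a stand lowest among the labelled genes.

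Tnf, the gene of the inflammatory cytokine TNF, had the smallest p of all genes. Tnf was at 77.95, 73.8, 52.5 and 58.7 CPM in the day 1.5 libraries and at 24.98, 21.6, 19.9 and 18.8 CPM in the day 3 libraries. Every day 3 library was below every day 1.5 library, and the log2 fold change was -1.62 ± 0.07 (SE, adjusted p = 2.8e-11, edgeR; 0.00021 without the pair term). Lta, the neighbouring gene of lymphotoxin alpha, fell by 1.07 ± 0.18 from 6.55 ± 0.936 to 3.102 ± 0.606 CPM (SD, n = 4 each). Pdcd1, which encodes the inhibitory receptor PD-1, had the largest fall in the ranking, which took called genes that averaged log2 CPM 1 or more and whose days did not overlap. Pdcd1 was at 15.2, 10.9, 8.38 and 9.61 CPM in the day 1.5 libraries and at 3.88, 2.18, 3.03 and 2.85 CPM in the day 3 libraries. The days did not overlap, and Pdcd1 fell by 1.88 ± 0.18 on the log2 scale (adjusted p = 5.9e-07; 0.024 without the pair term). Wnt10a, a secreted Wnt ligand, fell by 1.70 ± 0.18. Wnt10a was at 20.6, 15.1, 33.7 and 20.99 CPM in the day 1.5 libraries and at 2.71, 3.42, 14.7 and 8.47 CPM in the day 3 libraries. Its 2 vector libraries of day 3 were the lowest of the 8, and its adjusted p without the pair term was 0.061. Il10, the gene of an anti-inflammatory cytokine, fell by 0.98 ± 0.15 from 21.05 ± 6.96 to 10.8 ± 4.13 CPM, with overlapping days.

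Immediate-early genes, which are switched on by signalling without new protein synthesis, had the lowest median log2 fold change of the lists tested, -0.47, where the median of all genes was -0.0041. Of 23 tested members, 14 were called lower and none higher, beside 6.32% and 5.30% of all genes. Without the pair term 3 of them were called, all lower (Egr2, Dusp5 and Dusp2). Egr2, a zinc finger transcription factor of this class, was at 32.5, 33.4, 22.3 and 16.9 CPM at day 1.5 and at 15.3, 9.46, 7.66 and 7.64 CPM at day 3. It fell by 1.40 ± 0.12 (adjusted p = 1.5e-07) with no overlap of the days, although the highest day 3 library (15.3 CPM) was close to the lowest day 1.5 library (16.9 CPM). Dusp2 was at 376, 441, 237 and 327 CPM in the day 1.5 libraries and at 164, 192, 142 and 161 CPM in the day 3 libraries. This phosphatase of MAP kinases fell by 1.05 ± 0.06 (adjusted p = 1.2e-09; 0.024 without the pair term), and all day 3 libraries were below all day 1.5 libraries. Its relative Dusp5, which acts on ERK, fell by 1.10 ± 0.09 from 83.8 ± 16.8 to 39.4 ± 9.26 CPM. Dusp8, a phosphatase of the same family outside the list, fell by 1.33 ± 0.20 to 2.29 ± 0.112 CPM, and the transcription factor gene Klf10 by 1.03 ± 0.21. Egr1, a zinc finger factor of the same class, fell by 0.81 ± 0.25 (adjusted p = 0.039), but its libraries spread widely. Egr1 was at 2.75, 50.3, 11.6 and 31.1 CPM in the day 1.5 libraries and at 3.07, 23.7, 7.42 and 18.5 CPM in the day 3 libraries. Replicates 4 and 2 were higher than replicates 3 and 1 in both genotypes, and the days overlapped. Nr4a1, a nuclear receptor of the class, had a log2 fold change of -0.73 and was called, while Fos (-0.47), Jun (0.22) and Myc (-0.05) were not; these 4 list members were picked for naming after their values were seen. With 1 library left out at a time the call was kept by Egr1 in 3 of the 8 fits.

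**Figure D3:**
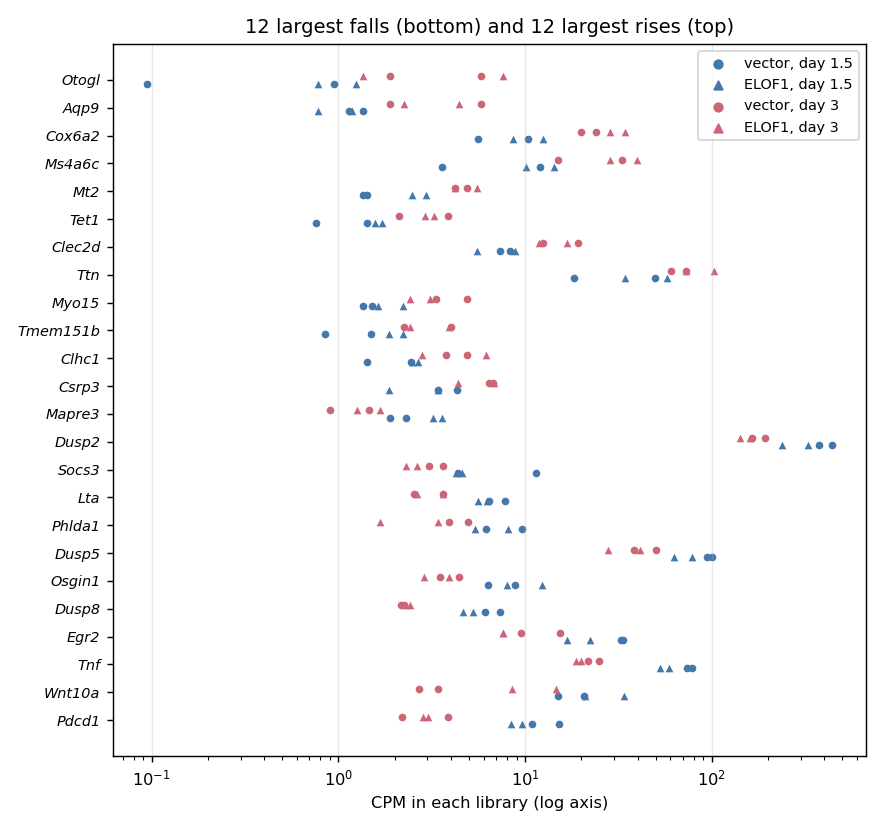
Expression in CPM (log axis) of the 12 largest rises and the 12 largest falls among called genes whose days did not overlap; each point is 1 library, with colour for the day and shape for the genotype. In each row all 4 day 3 libraries lie on one side of the 4 day 1.5 libraries; Tnf goes from 52.5 to 78.0 CPM at day 1.5 down to 18.8 to 25.0 CPM at day 3.

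On the lists kept here for the 3 signals in the medium, all called members were also lower at day 3. The lists do not hold every target. Igha, whose locus TGF-β opens, was not on them and was called higher (0.26). Of 23 tested genes of the CD40 and NF-kB list, 10 were called lower and none higher, with a median log2 fold change of -0.14; none was called without the pair term. Traf1 was at 162, 292, 107 and 189 CPM in the day 1.5 libraries and at 112, 157, 69.1 and 107 CPM in the day 3 libraries. Traf1, an adaptor of TNF family receptors and an NF-kB target, fell in each of the 4 pairs (log2 fold change -0.72 ± 0.06, adjusted p = 8.2e-08), but the days overlapped, with replicates 4 and 2 higher than replicates 3 and 1. The NF-kB inhibitor genes Nfkbid and Nfkbia fell by 0.62 ± 0.06 and 0.40 ± 0.05, and the adhesion gene Icam1 by 0.39 ± 0.04. The subunit genes of NF-kB themselves were not called, at log2 fold changes of -0.14 for Rel, -0.11 for Relb, -0.06 for Nfkb1, -0.11 for Nfkb2 and -0.03 for Rela. Of 14 tested members of the list for IL-4 and STAT6, 6 were called lower and none higher (median -0.24). Vdr, the vitamin D receptor gene, fell by 0.995 ± 0.15 from 10.1 ± 3.55 to 4.97 ± 0.648 CPM without overlap. Ccl22, a chemokine among the most abundant RNAs here, was at 4980.1, 5192, 3362 and 3889 CPM at day 1.5 and at 3618, 3983, 2620.4 and 3373 CPM at day 3. It fell by 0.35 ± 0.05 (adjusted p = 7.5e-05) in each of the 4 pairs, with overlap between the days. Fcer2a, the low-affinity IgE receptor CD23, fell by 0.42 ± 0.07 and Socs1, a feedback inhibitor of cytokine signalling, by 0.29 ± 0.08. The receptor chain gene Il4ra was not called (0.10). When each library was left out in turn, the calls held for Socs1 in 4 of 8 fits.

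Of 19 tested genes of the TGF-β list, 9 were called lower and none higher, with a median log2 fold change of -0.18 and no call without the pair term. Id2 was at 38.9, 74.4, 50.8 and 70.3 CPM in the day 1.5 libraries and at 21.2, 42.1, 19.5 and 36.1 CPM in the day 3 libraries. Id2, an inhibitor of E-protein transcription factors, fell by 1.001 ± 0.09 (adjusted p = 2.4e-07; 0.22 without the pair term). Day 3 was the lower in each pair, but across pairs the days overlapped. Id3, of the same family, fell by 0.65 ± 0.10 from 29.5 ± 4.45 to 18.6 ± 1.46 CPM without overlap. The SMAD repressor genes Skil and Ski fell by 0.71 ± 0.07 and 0.48 ± 0.10, and Smad7, which inhibits the TGF-β receptor, by 0.32 ± 0.06. Smad2, Smad3 and Smad4, which carry the signal, were not called, at 0.11, 0.08 and 0.11.

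B cell surface and receptor genes moved in both directions. Of 26 tested activation genes 9 were called lower and 4 higher, and of 23 tested genes of B cell receptor signalling 10 were called lower and 3 higher. Among the former Cd69, an early activation antigen, was at 162, 249, 228.02 and 275 CPM at day 1.5 and at 119.9, 149, 126 and 146 CPM at day 3, a fall of 0.74 ± 0.06 (adjusted p = 2.4e-07) with no overlap. Tnfrsf13c, the receptor of the survival factor BAFF, fell by 0.78 ± 0.08. Tnfrsf13c was at 109, 320.1, 81.5 and 214.9 CPM in the day 1.5 libraries and at 47.7, 182, 52.97 and 145 CPM in the day 3 libraries. The replicates differed more than the days did: all of replicates 4 and 2 were above all of replicates 3 and 1. The ligand genes Cd274 (PD-L1, 0.58) and Icosl (0.53) were called higher; they lie outside the naming rule and were picked after their values were seen. Among the receptor signalling genes the kinase gene Prkd2 fell by 0.73 ± 0.06, and it was also called without the pair term (adjusted p = 0.021). Prkd2 was at 80.5, 84.5, 72.2 and 78.2 CPM in the day 1.5 libraries and at 49.5, 55.7, 41.3 and 44.7 CPM in the day 3 libraries. All day 3 libraries lay below all day 1.5 libraries. Cd72, an inhibitory coreceptor, fell by 0.60 ± 0.11, Ptpn6, the phosphatase SHP-1, by 0.35 ± 0.06, and the Src family kinase gene Blk by 0.28 ± 0.06. The receptor chain genes Cd79a and Cd79b rose by 0.20 ± 0.05 and 0.21 ± 0.05 and Cd22 by 0.19 ± 0.05. With scaling to the fly RNA, described at the end, those 3 rises were not called. Of the 8 fits that each omitted a library, the call was still made for Cd22 in 5 and Cd79b and Cd79a in 4.

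Glycolysis was the list with the largest share of called members. Of 25 tested members, which are enzymes, glucose and lactate transporters and regulators, 17 were called lower and 1 higher, with a median log2 fold change of -0.30 (-0.39 with scaling to fly RNA). The 1 called higher was Eno2 (0.19), an enolase isoform. Without the pair term 2 members were called, Pdk1 and Pkm, both lower. Tpi1 was at 948, 699, 699 and 668 CPM in the day 1.5 libraries and at 609, 397, 529 and 396 CPM in the day 3 libraries. Tpi1, triosephosphate isomerase, fell by 0.65 ± 0.06 (adjusted p = 5.9e-07) without overlap of the days, and its span overlaps that of Spsb2. Pgk1 was at 911, 739, 725 and 662 CPM in the day 1.5 libraries and at 662, 463, 504 and 419 CPM in the day 3 libraries. Pgk1, phosphoglycerate kinase, fell by 0.58 ± 0.05 (adjusted p = 2.4e-07; 0.11 without the pair term), and the lowest day 1.5 library equalled the highest day 3 library to 3 digits. Pdk1, the kinase that holds back pyruvate dehydrogenase, was at 99.6, 97.5, 94.7 and 102 CPM and then at 64.5, 59.7, 64.4 and 72.9 CPM, the smallest spread among these genes. It fell by 0.59 ± 0.06 (adjusted p = 9.0e-07; 0.024 without the pair term). Pfkl, a phosphofructokinase, and Hk1, a hexokinase, fell by 0.66 ± 0.07 and 0.53 ± 0.07. Further down the pathway Ldha, lactate dehydrogenase, had a log2 fold change of -0.52, Pkm, pyruvate kinase, -0.43, and Gapdh -0.25, each called; these 3 were picked after their values were seen. The glucose transporter genes Slc2a3 and Slc2a1 were called at -0.39 and -0.22.

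Of 17 tested genes of the response to low oxygen, 8 were called lower and 1 higher (median -0.28), none without the pair term. The mitophagy receptor genes Bnip3 and Bnip3l led the falls. Bnip3 was at 97.7, 63.5, 69.4 and 53.3 CPM in the day 1.5 libraries and at 57.4, 23.5, 39.01 and 20.6 CPM in the day 3 libraries. Bnip3 fell by 1.08 ± 0.10 (adjusted p = 2.8e-07) in each pair, and only vector replicate 1 at day 3 reached the range of day 1.5. Bnip3l fell by 0.87 ± 0.07 from 246 ± 37.2 to 137 ± 38.9 CPM. The prolyl hydroxylase subunit gene P4ha1 fell by 0.52 ± 0.05 and Ero1l, an oxidase of disulfide formation in the endoplasmic reticulum, by 0.45 ± 0.05. Hif1a RNA was not called (-0.04), nor was Vegfa (-0.05). The member called higher was Ddit4, which is also on the ATF4 list. In contrast with glycolysis, 1 of 23 tested genes of the tricarboxylic acid cycle (Fh1, lower) was called. So was 1 of 36 listed nuclear genes of oxidative phosphorylation (Uqcrh, lower). These shares were not tested against each other. Cox6a2, a cytochrome c oxidase subunit gene that is not on that list, was called higher (1.56, given below). Omitting each library in turn left the call for Uqcrh in 2 of 8 fits.

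The promoters of glycolysis genes are known to hold sites of hypoxia-inducible factors, whose core is ACGTG, and are shown for that reason. In RefSeq windows of build GRCm38.p6, from 250 bases before to 50 after a start site, ACGTG on either strand was found in 18 of 38 windows of 25 glycolysis genes (47.4%). The share was 25.5% of 11821 windows of tested genes and 19.6% of all 32851 windows. A match is a description of the letters and not a site of binding, and CACGTG, which other factors also bind, holds ACGTG on both strands. Among the 4 called members with the largest change, Pgk1 had 2 matches and Pfkl, Tpi1 and Pdk1 had none in their windows, from which nothing is drawn about the factors. The windows of Pgk1 (chrX:106186850-106187149, plus strand), Tpi1 (chr6:124814109-124814408, minus strand) and, picked after its matches were counted, Ldha (chr7:46845554-46845853, plus strand, 1 of its 2 windows) are printed 5′ to 3′ with ACGTG or its reverse complement CACGT in capitals.
Pgk1: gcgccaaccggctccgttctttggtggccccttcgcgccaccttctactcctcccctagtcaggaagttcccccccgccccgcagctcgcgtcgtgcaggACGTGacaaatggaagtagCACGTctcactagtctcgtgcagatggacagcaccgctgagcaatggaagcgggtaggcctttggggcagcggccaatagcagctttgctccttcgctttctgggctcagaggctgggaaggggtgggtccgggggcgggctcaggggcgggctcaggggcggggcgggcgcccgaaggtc
Tpi1: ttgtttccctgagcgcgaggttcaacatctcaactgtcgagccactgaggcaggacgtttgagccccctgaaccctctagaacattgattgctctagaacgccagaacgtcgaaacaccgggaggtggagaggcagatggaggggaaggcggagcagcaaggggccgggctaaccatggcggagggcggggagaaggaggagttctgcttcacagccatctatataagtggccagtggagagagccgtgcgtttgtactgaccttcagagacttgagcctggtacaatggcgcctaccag
Ldha: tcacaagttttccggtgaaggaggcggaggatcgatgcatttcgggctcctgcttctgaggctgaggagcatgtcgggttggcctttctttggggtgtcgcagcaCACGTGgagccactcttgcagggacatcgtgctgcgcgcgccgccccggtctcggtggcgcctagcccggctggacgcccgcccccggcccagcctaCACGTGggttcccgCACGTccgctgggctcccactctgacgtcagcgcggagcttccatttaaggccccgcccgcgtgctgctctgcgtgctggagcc

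The matches in Pgk1 began 150 and 131 bases before the start site. The log2 fold changes of the 3 genes were -0.58 for Pgk1, -0.65 for Tpi1, whose window holds no match, and -0.52 for Ldha; a difference between them was not tested.

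Genes of mitosis were lower by small amounts. Of 32 tested G2 and mitosis genes 14 were called lower and none higher (median -0.14), none of them without the pair term, and with 1 library left out 4 to 10 were called. Ccnb1 was at 207.9, 207.5, 234 and 196 CPM in the day 1.5 libraries and at 181, 167, 185 and 174 CPM in the day 3 libraries. Ccnb1, cyclin B1, fell by 0.26 ± 0.05 (adjusted p = 0.001) without overlap of the days. Prc1, a protein of the spindle midzone, fell by 0.35 ± 0.05, Plk1, a mitotic kinase, by 0.23 ± 0.05 and Cenpa, the histone variant of centromeres, by 0.24 ± 0.05. Of 38 tested genes of DNA replication 2 were called lower (Rrm2 and Pold1) and 2 higher (Tyms and Pola2), with a median of -0.025. Each direction held 5.26% of them, near the 6.32% lower and 5.30% higher of all genes. Histone genes, whose RNA is not polyadenylated but enters libraries made by depletion of ribosomal RNA, were the reverse of the mitosis genes: 5 of 12 tested were called higher and none lower (median 0.17). The linker histone gene Hist1h1c rose most, from 380.1 ± 41.2 to 495 ± 46.2 CPM (0.39 ± 0.07, adjusted p = 0.0005). The share of mouse counts on replication-dependent histone genes was 0.993% ± 0.119 at day 1.5 and 1.12% ± 0.0424 at day 3 (SD, n = 4), higher in 4 of 4 pairs, with p = 0.143 in a two-sided exact permutation test of 4 against 4 libraries, whose smallest p is 0.0286 (0.715 after adjustment over 5 library values). The 5 histone genes called higher were the linker genes Hist1h1c, Hist1h1d, Hist1h1a and Hist1h1b and the core gene Hist1h2bb. Only 12 of the 29 list members matched a gene symbol in the counts. The share above was taken over 67 histone genes, so the list covers only a part of them. Copies of core histone genes are near-identical, so their single counts are uncertain. With fly RNA scaling 2 of the 12 tested histone genes were called. With 1 library left out at a time the call was kept by Hist1h1b in 4, Pold1 in 3, Hist1h2bb in 2 and Pola2 in 0 of the 8 fits.

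In the BCL2 and apoptosis list 7 of 21 tested members were called lower and none higher, and they included genes of opposite roles. The survival genes Mcl1 and Bcl2l1 fell by 0.34 ± 0.04 and 0.40 ± 0.07, as did Bcl2a1b by 0.29 ± 0.05, while the death gene Pmaip1 (NOXA) fell by 0.29 ± 0.07. Mcl1 was at 298, 292, 283 and 283 CPM in the day 1.5 libraries and at 235, 228.2, 223.8 and 225.9 CPM in the day 3 libraries. The libraries of a day were close to each other and the days did not overlap, and Mcl1 was also called without the pair term (adjusted p = 0.031). Bcl2 itself (-0.09) and Bax (-0.09) were not called. Bcl2a1b belongs to a family of near-identical copies, so its counts are uncertain. When each library was left out in turn, the calls held for Pmaip1 in 6 of 8 fits.

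Of 23 tested genes of the NRF2 antioxidant list 6 were called lower and 1 higher, the latter being Nfe2l2, the gene of NRF2 itself (0.31 ± 0.06). Osgin1, a stress-induced gene, fell by 1.27 ± 0.17 from 8.89 ± 2.54 to 3.68 ± 0.659 CPM without overlap, and Hmox1, heme oxygenase, by 0.26 ± 0.07. Of the 8 fits that each omitted a library, the call was still made for Hmox1 in 3.

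The rises at day 3 were led by genes that are low in these cells. Otogl, which encodes a glycoprotein known from the inner ear, had the largest by the same ranking. Otogl was at 0.0947, 0.947, 0.776 and 1.24 CPM in the day 1.5 libraries and at 1.89, 5.82, 1.36 and 7.57 CPM in the day 3 libraries. The days were narrowly apart in CPM (the counts behind them, 1 to 19 at day 1.5 and 17 to 109 at day 3, overlapped), the vector replicate 3 library at day 1.5 rests on 1 count, and replicate 2 at day 3 was high in both genotypes; the log2 fold change was 2.38 ± 0.32 (adjusted p = 3.8e-05; 0.19 without the pair term). Aqp9, a channel for water and glycerol, rose by 1.68 ± 0.27 from 1.11 ± 0.242 to 3.599 ± 1.87 CPM, and Tet1, an enzyme that oxidises 5-methylcytosine, by 1.11 ± 0.28 from 1.36 ± 0.420 to 3.04 ± 0.738 CPM. Cox6a2 was at 10.3, 5.62, 12.4 and 8.56 CPM in the day 1.5 libraries and at 20.02, 23.9, 28.4 and 34.2 CPM in the day 3 libraries. Cox6a2, the muscle isoform of a cytochrome c oxidase subunit, rose by 1.56 ± 0.14 (adjusted p = 4.3e-07) and was also called without the pair term (adjusted p = 0.025). Ms4a6c was at 3.599, 12.04, 10.1 and 14.3 CPM in the day 1.5 libraries and at 14.97, 33.05, 28.4 and 39.5 CPM in the day 3 libraries. Ms4a6c, of the MS4A family of membrane proteins, rose by 1.54 ± 0.14, in each pair, and the lowest day 3 library was just above the highest day 1.5 library. Ttn was at 18.4, 49.9, 34.2 and 57.2 CPM in the day 1.5 libraries and at 60.3, 72.9, 72.9 and 103 CPM in the day 3 libraries. Ttn, the muscle protein titin, rose by 0.98 ± 0.11 (adjusted p = 2.7e-06), and its adjusted p without the pair term was 0.22. The metallothionein gene Mt2 rose by 1.20 ± 0.22, the lectin gene Clec2d by 1.01 ± 0.12 and Csrp3, which encodes muscle LIM protein, by 0.92 ± 0.19. Among the largest rises were also Myo15 (0.98 ± 0.27), Tmem151b (0.97 ± 0.29) and Clhc1 (0.95 ± 0.22, whose span overlaps Rps27a), all with day 3 means under 5 CPM. Omitting each library in turn left the call for Clhc1 in 7, Tet1 in 6 and Myo15 and Tmem151b in 3 of 8 fits.

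Called genes of the ATF4 and amino acid response were all higher at day 3. Of 25 tested members 13 were called higher and none lower (median 0.13), against 5.30% of all genes called higher. Ddit3 was at 23.5, 30.7, 23.04 and 25.2 CPM in the day 1.5 libraries and at 44.3, 51.5, 38.4 and 44.6 CPM in the day 3 libraries. Ddit3, the stress factor CHOP, rose by 0.80 ± 0.07 (adjusted p = 2.4e-07) without overlap, and it was the 1 member called without the pair term (adjusted p = 0.026). Its span overlaps that of Mars, a tRNA synthetase gene, which fell by 0.23 ± 0.05. Atf5 was at 246, 188, 178 and 159.5 CPM in the day 1.5 libraries and at 301, 344, 223.9 and 248 CPM in the day 3 libraries. The transcription factor gene Atf5 rose by 0.53 ± 0.07 in each pair, with overlap, and its span overlaps Il4i1. Nupr1 was at 5.11, 7.65, 4.42 and 11.7 CPM in the day 1.5 libraries and at 6.403, 17.9, 13.7 and 21.95 CPM in the day 3 libraries. Nupr1, a small stress-induced nuclear protein, rose by 1.06 ± 0.15, with overlap. The arginine transporter gene Slc7a3 rose by 0.38 ± 0.06 and Ddit4, an inhibitor of mTORC1, by 0.37 ± 0.06. Atf4 RNA was called at 0.19, and the synthesis enzyme genes Phgdh (0.07) and Psat1 (0.13) were not; these 3 were picked after their values were seen. Scaling to fly RNA left 6 members called higher and had 2 called lower, with a median of 0.046. Of 20 tRNA synthetase genes 2 were called higher (Wars and Nars) and 1 lower (Mars). With 1 library left out at a time the call was kept by Nars in 3 of the 8 fits.

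Cholesterol synthesis genes had the highest median of the pathway lists, 0.21: 10 of 24 tested were called higher and none lower, none without the pair term and 6 with fly RNA scaling. They lay along the pathway, from Hmgcs1 (0.29), an early enzyme, to Mvd, Fdft1, Sqle (0.25) and Lss and the late enzymes Msmo1 and Nsdhl. Mvd was at 38.9, 38.4, 30.02 and 38.6 CPM in the day 1.5 libraries and at 57.6, 50.4, 44.2 and 48.8 CPM in the day 3 libraries. Mvd, mevalonate decarboxylase, rose by 0.46 ± 0.08 (adjusted p = 0.00045) without overlap of the days. Nsdhl rose by 0.49 ± 0.13 from 10.1 ± 2.25 to 14.4 ± 3.56 CPM, Msmo1 by 0.40 ± 0.09, Lss by 0.36 ± 0.07 and Fdft1 by 0.34 ± 0.07. Nsdhl was no longer called in 4 of the 8 fits that left out 1 library (highest adjusted p = 0.096). The regulator gene Srebf2 (-0.08) was not called. In the fatty acid list 2 of 13 tested genes were called higher, Fasn (0.19 ± 0.05) and Acly (0.17 ± 0.05), and its median of 0.079 became -0.0093 with fly RNA scaling. When each library was left out in turn, the calls held for Fasn in 4 and Acly in 3 of 8 fits.

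Of 29 tested genes of protein folding and secretion 6 were called higher and 2 lower. Sel1l, a part of the degradation machinery of the endoplasmic reticulum, rose by 0.36 ± 0.05, the chaperone gene Hspa5 (BiP) by 0.26 ± 0.05 and Xbp1 by 0.21 ± 0.06. Hspa5 was at 1322, 1188, 1392 and 1182 CPM in the day 1.5 libraries and at 1651, 1563, 1473 and 1379 CPM in the day 3 libraries. The days overlapped, through ELOF1 replicate 3 of day 1.5 and ELOF1 replicate 2 of day 3. Lysosome and autophagy genes had 7 of 26 tested called higher, among them the channel gene Mcoln1 (0.35 ± 0.09), and 2 lower, the autophagy genes Wipi1 (-0.52 ± 0.17) and Ulk1 (-0.41 ± 0.08). Of 46 ribosomal protein genes 12 were called higher, by at most 0.21 (Rpl23), and none was called with fly RNA scaling or without the pair term; leaving out 1 library gave 0 to 24. Of 12 tested noncoding and snoRNA host genes 4 were called higher, Neat1 (0.37 ± 0.06), Snhg5, Gas5 and Malat1. MHC class II genes had 3 of 14 tested called higher (H2-Oa, H2-Eb1 and H2-Ab1, by 0.19 to 0.22) and 1 lower (Rfxap). Fly RNA scaling left 2 higher and 2 lower for folding and secretion, and 1 higher and 3 lower for lysosome and autophagy. It left 1 higher and none lower for the noncoding and host genes, and none higher and 2 lower for MHC class II. Without the pair term no member of these lists was called. Of the 8 fits that each omitted a library, the call was still made for Gas5 in 7, Mcoln1 in 6, Snhg5, H2-Oa, Malat1 and Xbp1 in 4, Rpl23 in 3, Rfxap in 1 and Wipi1 in 0.

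Receptors that guide B cells through tissue differed in direction. S1pr1, the receptor for exit from lymphoid organs, rose by 0.87 ± 0.08 (adjusted p = 4.6e-07; 0.17 without the pair term). S1pr1 was at 25.5, 17.1, 32.1 and 17.8 CPM in the day 1.5 libraries and at 47.2, 35.2, 50.7 and 33.97 CPM in the day 3 libraries. All day 3 libraries were above all day 1.5 libraries. The chemokine receptor gene Ccr7 rose by 0.24 ± 0.04, while Cxcr5, which guides cells to follicles, fell by 0.41 ± 0.05 and Gpr183, an oxysterol receptor, by 0.33 ± 0.07. Of 17 tested genes of this list 2 were called higher and 3 lower. Cd28, a costimulatory receptor best known from T cells, was at 129.7, 128, 164 and 143 CPM and then at 200.3, 198, 198 and 205 CPM. It rose by 0.51 ± 0.06 without overlap and was called without the pair term, and Lck, a kinase likewise known from T cells, fell by 0.49 ± 0.06. The T cell receptor genes Trbc1 and Trbc2 were at 0 in all 8 libraries, as given above. Other T cell genes had low total counts over the 8 libraries. These were 116 for Cd4, 67 for Cd8a, 48 for Trac, 39 for Cd3d, 22 for Cd3g and 13 for Cd3e. The macrophage marker Adgre1 rose by 0.68 ± 0.10 from 34.5 ± 20.8 to 55.3 ± 31.8 CPM with overlap. Of the other myeloid markers, Csf1r and Cd68 had total counts of 3742 and 1999, while S100a8, S100a9 and Elane were at 0.

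**Figure D4:**
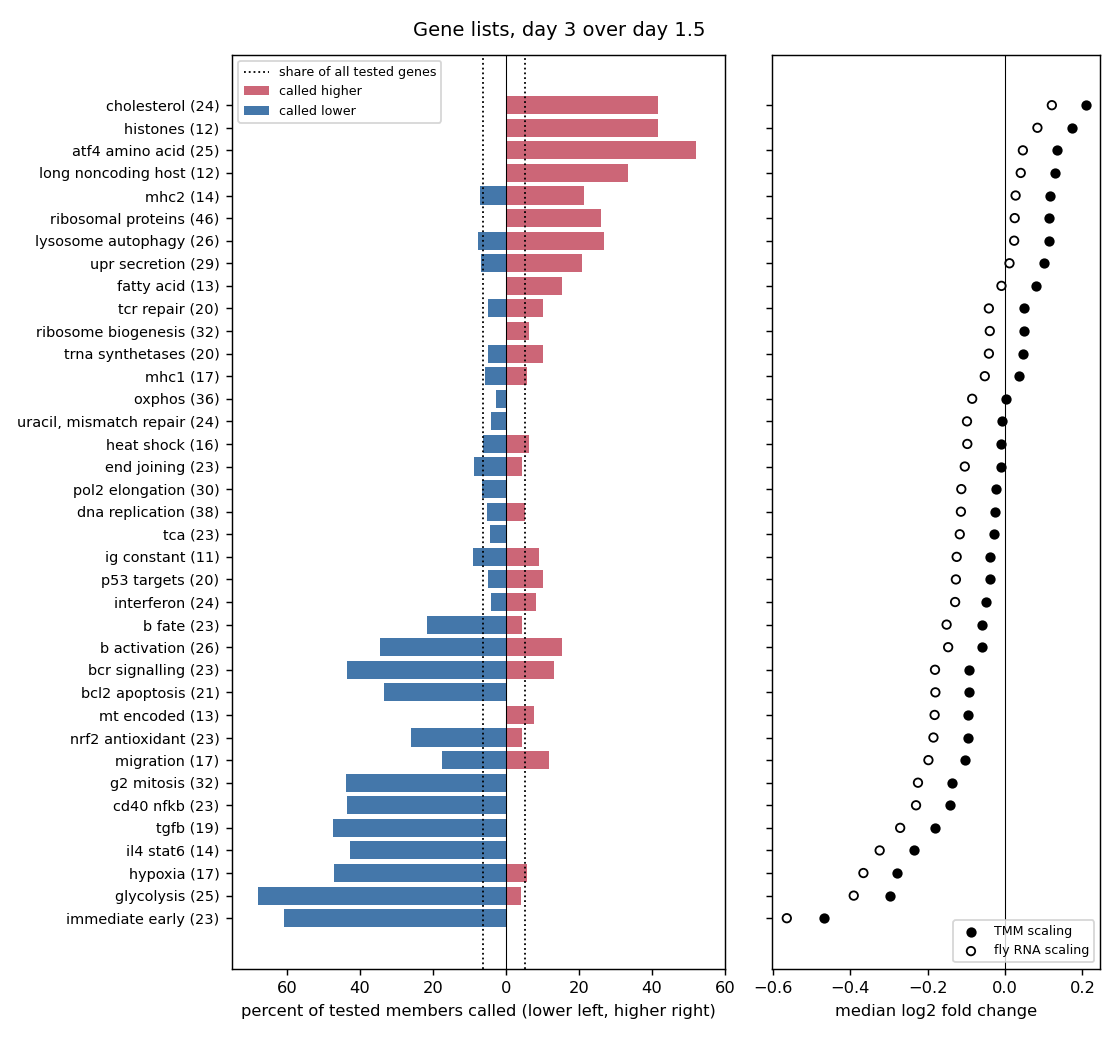
For each gene list (tested members in parentheses) the left panel shows the percent of tested members called lower (bars to the left) and higher (bars to the right), with dotted lines at 6.32% and 5.30%, the shares of all tested genes; the right panel shows the median log2 fold change with TMM and with fly RNA scaling. Immediate-early and glycolysis genes lie at the bottom and cholesterol and histone genes at the top, and fly RNA scaling moves all medians to the left.

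Genes of class switching are read against the 11.6% called over all genes. Ung, the uracil glycosylase of switch regions, had a log2 fold change of -0.01 ± 0.06, and Supt5, a pausing factor of RNA polymerase II, -0.08 ± 0.04; neither was called. Of 24 tested genes of switching cofactors, uracil excision and mismatch repair 1 was called, Msh6 (-0.28 ± 0.05), and of 23 tested genes of end joining 2 were called lower (Xrcc4, -0.70 ± 0.17, and Mdc1, -0.36 ± 0.06) and 1 higher (Polq, 0.18 ± 0.06). Igha, the constant gene of IgA, was at 1521, 1517, 1698 and 1918 CPM at day 1.5 and at 1508, 1788, 2057 and 2801 CPM at day 3. It rose by 0.26 ± 0.06 (adjusted p = 0.0098, edgeR). The adjusted p was 0.38 without the pair term in edgeR and 0.12 with DESeq2, so neither called it. Day 3 was higher in 3 of 4 pairs, and the days overlapped. The highest value of each day was in ELOF1 cells, replicate 4 at day 1.5 and replicate 2 at day 3. The call was lost in 2 of the 8 fits that left out 1 library (highest adjusted p = 0.08). Ighm was at 2424, 2219, 3022 and 1732 CPM and 2603, 2656, 2631 and 1430.1 CPM, with a log2 fold change of -0.02 ± 0.11. As a log2 ratio, Igha over Ighm counts stood at -0.477 ± 0.431 at day 1.5 and -0.186 ± 0.791 at day 3 (SD, n = 4), higher in 2 of 4 pairs, with p = 0.571 in a two-sided exact permutation test (0.8286 after adjustment over 5 library values). The ratio moved in opposite directions in the genotypes: from -0.673 to -0.788 and from -0.548 to -0.571 in the 2 vector pairs, and from -0.832 to -0.355 and from 0.146 to 0.970 in the 2 ELOF1 pairs. The difference between the genotypes in this ratio was not tested. Germline transcripts of Igha and those of switched cells are counted on the same gene, so these values do not count switched cells. Ighg1, at 11.4 ± 6.29 CPM at day 1.5, fell by 0.57 ± 0.15. Of 30 tested elongation factor genes of RNA polymerase II 2 were called, both lower (Ell2, -0.17 ± 0.05, and Aff1, -0.16 ± 0.05), and Elof1 itself was not (-0.33 ± 0.13, adjusted p = 0.12). Of 20 tested genes of transcription-coupled and nucleotide excision repair 2 were called higher (Gtf2h1 and Ercc4) and 1 lower (Cetn2). Omitting each library in turn left the call for Xrcc4 in 6, Ighg1 in 5, Aff1 in 3, Ercc4, Polq and Ell2 in 2 and Cetn2 in 0 of 8 fits.

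The remaining lists are given by their counts, also beside the 11.6% of all genes. Of 23 tested genes of B cell fate 5 were called lower, among them the coactivator gene Pou2af1 (-0.19 ± 0.05) and the repressor gene Zbtb32 (-0.36 ± 0.06), and 1 higher (Xbp1). Prdm1 (-0.21), a master regulator of plasma cell fate picked after its value was seen, was not called. Of 24 tested interferon genes 2 were called higher, the transcription factor genes Stat2 (0.54 ± 0.10) and Irf1 (0.46 ± 0.07), and 1 lower, the RNA sensor gene Ddx58 (-0.70 ± 0.15). Of 20 tested p53 targets 2 were called higher, Gadd45a (0.42 ± 0.09) and Fas (0.20 ± 0.06), and 1 lower (Pmaip1). Heat shock genes had 1 of 16 called higher, the cochaperone gene Dnajb1 (0.34 ± 0.06), and 1 lower, Hsp90aa1 (-0.19 ± 0.05). Of 17 MHC class I genes H2-Q4, of a family of close copies, was called higher (0.22 ± 0.05) and the peptide transporter gene Tap1 lower (-0.17 ± 0.05). Ribosome biogenesis had 2 of 32 called higher (Polr1a and Utp20), and of 13 genes of the mitochondrial genome mt-Cytb was called higher (0.19 ± 0.06). Of 10 tested plasma cell markers 2 were called higher (Creb3l2 and Xbp1) and 2 lower (Slamf7 and Ell2). With 1 library left out at a time the call was kept by Utp20 in 7, H2-Q4 in 6, Pou2af1 in 5, Fas, mt-Cytb and Hsp90aa1 in 3 and Tap1 and Slamf7 in 2 of the 8 fits.

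The change between the days was also fitted within each genotype, with 2 libraries a day and the spread shared by all 8. In vector cells 683 genes were called (5.12%), 277 higher and 406 lower, and in ELOF1 cells 317 (2.38%), 111 higher and 206 lower. The unequal numbers do not show a difference: when the difference of the day effects was tested itself, 0 of 13329 genes were called (0%) by edgeR, the smallest adjusted p was 0.809, and 543 genes had an unadjusted p under 0.05. DESeq2 also called 0, with 147 at an unadjusted p under 0.05. The 5 genes with the smallest p were Selplg, Snn, Wnt10a, Nlgn2 and Ethe1, and they are given as values. Selplg, a ligand of selectins, had a log2 fold change of -0.88 in vector and -0.35 in ELOF1 cells, and Wnt10a of -2.49 and -1.24. Snn went from -0.02 in vector to 0.48 in ELOF1 cells, Nlgn2 from -0.35 to 0.36 and Ethe1 from -0.43 to 0.13. Of the large movers, Tnf stood at -1.71 in vector and -1.53 in ELOF1 cells, Bnip3 at -1.06 and -1.09, and Cox6a2 at 1.52 and 1.60. Igha had 0.11 in vector and 0.42 in ELOF1 cells (unadjusted p of the difference 0.014, not called after adjustment).

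Day 7 libraries of the same block (4, 2 of each genotype) show where the levels stood later. They were compared with the same day 3 libraries, so the 2 comparisons share samples and are given side by side only. Of 13490 genes tested over the 12 libraries, 1850 were called between day 7 and day 3 (13.7%), 1018 higher and 832 lower, and 195 without the pair term. Levels at day 7 are CPM from that fit as mean ± SD (n = 4). Tnf was at 21.6 ± 5.27 CPM at day 7, a log2 fold change over day 3 of 0.03 ± 0.11, and Dusp2 at 173 ± 10.1 CPM (0.08 ± 0.08); neither was called. Egr2 was lower than at day 3, at 5.03 ± 1.79 CPM (-0.99 ± 0.19, adjusted p = 0.0017), and Pdcd1 was higher, at 5.75 ± 0.823 CPM (0.96 ± 0.20, adjusted p = 0.0029). Pgk1 was at 464 ± 31.6 CPM (-0.12 ± 0.06) and Bnip3 at 26.6 ± 3.39 CPM (-0.32 ± 0.13), neither called. Of the 25 glycolysis genes 4 were called higher and 1 lower at day 7 over day 3. Of the 25 ATF4 genes 17 were called lower and 1 higher: Ddit3 was at 22.9 ± 4.51 CPM (-0.97 ± 0.09, adjusted p = 1.3e-06) and Atf5 at 151 ± 33.9 CPM (-0.89 ± 0.08, adjusted p = 1.0e-06). Of the 24 cholesterol genes 7 were called higher and none lower. Otogl was higher, at 28.7 ± 11.2 CPM (2.84 ± 0.21, adjusted p = 1.1e-07), and Mt2 was lower, at 1.201 ± 0.989 CPM (-2.03 ± 0.31, adjusted p = 0.00019). Mitotic genes had 12 of 32 called higher. Igha was at 2436 ± 806 CPM (0.24 ± 0.09, adjusted p = 0.069) and Ighm at 1479.7 ± 755 CPM (-0.76 ± 0.21, adjusted p = 0.018).

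**Figure D5:**
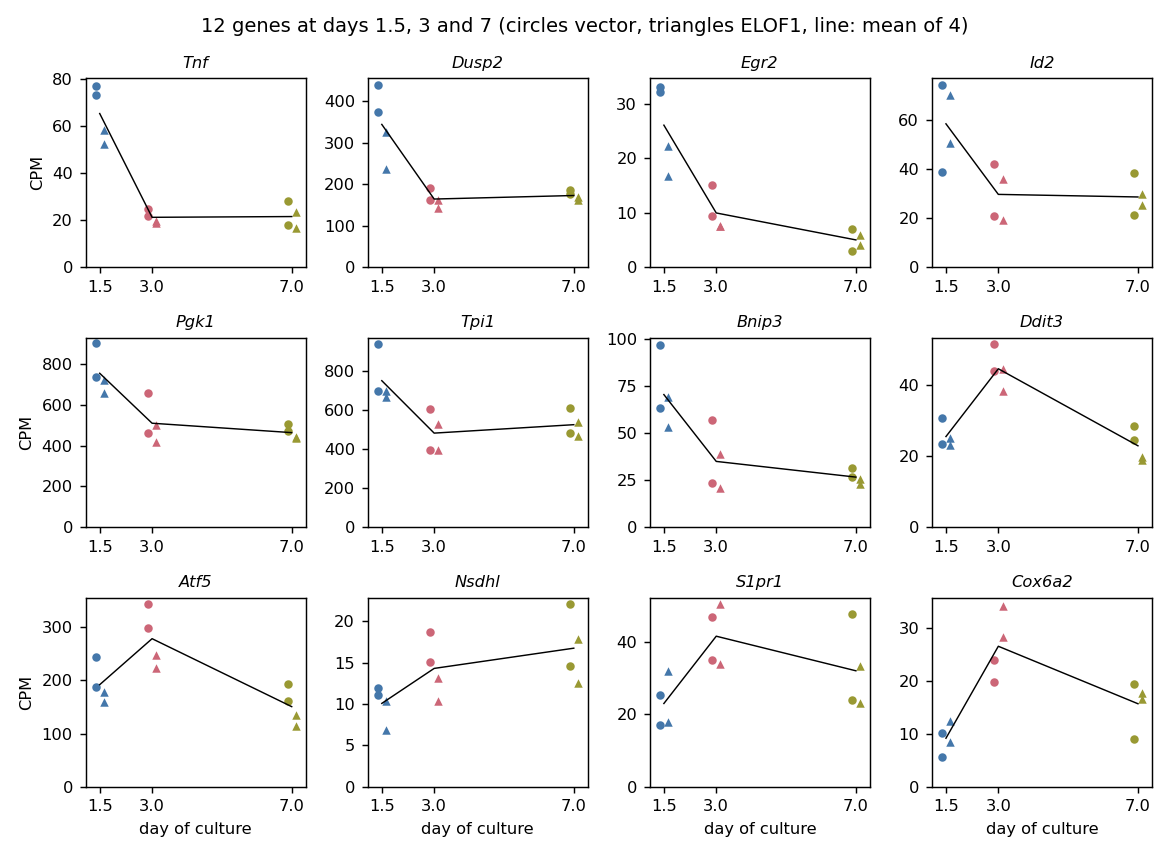
Expression in CPM (linear axis from 0, scaled over the 12 libraries of days 1.5, 3 and 7) of 12 genes named in the text by day of culture; circles are vector libraries, triangles ELOF1 libraries, and the line joins the means of 4 libraries. Tnf and Dusp2 fall between days 1.5 and 3 and stay near that level at day 7, while Ddit3 and Atf5 are highest at day 3.

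A fixed amount of fly RNA per cell gave a second scale. Fly counts were 2.27% to 3.09% of mouse counts, and on the log2 scale the fly counts stood relative to mouse counts at -5.22 ± 0.185 at day 1.5 and -5.14 ± 0.119 at day 3 (SD, n = 4), higher at day 3 in 4 of 4 pairs. A two-sided exact permutation test of the days gave p = 0.457 (and 0.8286 after adjustment over the 5 values), and the paired form of that test gave p = 0.125, the smallest it allows with 4 pairs. Scaled to fly RNA, the median of all genes shifted from -0.0041 to -0.0939 on the log2 scale, and 1940 genes were called, 254 higher and 1686 lower, against 706 and 842 with TMM. The shift is common to all genes, and it took 6 lists whose medians were just above 0 to below it, those of fatty acid synthesis, ribosome biogenesis, MHC class I, transcription-coupled repair, tRNA synthetases and oxidative phosphorylation. The share of mitochondrial genome counts was 1.62% ± 0.232 at day 1.5 and 1.58% ± 0.0842 at day 3 (exact permutation p = 0.8286). Long genes, with a span of 100 kb at least, exceeded short ones under 10 kb in median log2 CPM by 2.10 ± 0.101 at day 1.5 and 2.08 ± 0.0921 at day 3 (exact permutation p = 0.743).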

How the data were processed

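RNA-seq libraries made by ribosomal RNA depletion with a strand-specific kit were counted per gene. The deposited table holds raw counts, which the authors made, per the submitters' processing notes, with Bowtie2 and featureCounts on builds mm10 and dm6. For strand setting, multi-mapped reads and gene release the entry is: not given in the sources used here. The 17509 fly rows stayed out of library sizes and tests. Of 43345 mouse gene IDs 42461 matched a symbol in the reference table; the rest hold 0.375% to 0.404% of mouse counts per library and stayed in the fit under their IDs.

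The 8 libraries were fitted with edgeR 4.0.16 (R 4.3.3) on the counts as deposited, with TMM, the default expression filter by group (minimum count 10), terms for day, genotype and pair, and Benjamini-Hochberg adjustment over 13329 genes. The standard error is the log2 fold change over the root of F. Deviations from the group means correlated between same-pair libraries at r = 0.534 to 0.561 over the 6 pairs of groups, and the pairing across days is not in the labels. DESeq2 1.42.0 was an alternative, with fits without the pair term, with a pair term within each genotype, scaled to fly RNA or to totals, without the filter, with robust dispersions, with each library left out, over 12 libraries, and over 16 libraries with a term for the block of library numbers. Single values per library were compared by two-sided exact permutation tests in SciPy 1.17.1. On simulated counts for this comparison, over 13329 genes, 97.8% of 90 genes changed by 0.5 and 100% of 110 changed by 1 on the log2 scale were recovered, with 7 false calls. The simulated counts held the pair effect, and only genes of higher expression were changed. Both sizes exceeded the median called change of 0.292. The simulation therefore cannot say whether the pairing holds in the data or how smaller changes are recovered.

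Named genes were 9 set by name, the 12 largest rises and 12 largest falls of called genes that averaged log2 CPM 1 or more and whose days did not overlap, up to 5 called members of each list with the largest change, and for the interaction the 5 smallest p-values; other list members named in the report were picked after their values were seen. Some genes named by the rule are not reported here. The members and lists were chosen with earlier results of these data known. The spleen B cell table and, outside the alternatives, the earlier CH12F3 day 1.5 libraries were not used here.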

Additional observations from a re-analysis of the deposited data

Results flagged for a closer look

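The following values stood apart from the other 3 libraries of their day, by Dixon's test for 4 samples; 11 of 298 groups of 4 were so marked, and chance marks about 1 in 20. At day 1.5 Mvd was at 30.0 CPM in its lowest library against 38.4 to 38.9 in the others, and Klf10 at 4.38 against 7.51 to 7.96. At the same day the highest library stood apart for Hist1h1c (441 CPM against 354 to 367), Plk1 (152 against 126 to 129), Wipi1 (10.1 against 5.11 to 5.82) and Tpi1 (948 against 668 to 699). At day 3 the lowest library stood apart for Ighm (1430 CPM against 2600 to 2660), Rrm2 (100 against 125 to 128) and Csrp3 (4.39 against 6.41 to 6.81). The highest did so for Lss (131 against 92.1 to 94.6) and Cenpa (91.1 against 81.8 to 83.4). The log2 ratio of Igha to Ighm counts was lower at day 3 than at day 1.5 in both vector pairs (mean change -0.0687) and was higher at day 3 in both ELOF1 pairs (mean change 0.650), so the genotypes differed by 0.719; this difference was not tested.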

How the results depend on the processing

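The replicate block decided the number of calls: with the pairing 1548 genes were called between the days, without it 33, and with all 16 libraries, a term for the block of library numbers and no pairing 31. Without the pairing 0.0075% of genes (1 gene) were called in vector cells and as many in ELOF1 cells, and day 7 over day 3 had 195 in place of 1850. Of 170 named genes, 21 were on the same side of the threshold without it. The other alternatives kept the main count between 1230 and 1940. Leaving out 1 library gave 835 to 1471; the lowest counts were 835 without vector day 1.5 replicate 4, 924 without vector day 3 replicate 2, 941 without ELOF1 day 1.5 replicate 4 and 1009 without ELOF1 day 3 replicate 2. In vector cells the share of tested genes called was 5.12%, 3.18% with DESeq2 and 2.46% to 4.32% with 1 library left out, where the lone sample of an arm is assumed to vary like the others. In ELOF1 cells it was 2.38%, 3.72% with fly RNA scaling, 2.47% of the 22478 genes tested without the filter (555 genes against 317), 1.57% with DESeq2 and 0.602% to 2.87% with 1 library left out; in both genotypes each of the 4 fits without a library of that genotype lowered the count by over 1.5 times. The test of the difference between genotypes had 0, with 9 without the filter and 0 to 5 with 1 library left out, the 5 without vector day 1.5 replicate 4. The causes were not tested. No called gene among those named changed sign in any alternative. Tested genes had a median of 276 to 402 counts per library.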
